A study of Mus musculus with 6 samples.

Results

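The nuclear genes of the mitochondrial respiratory chain, and the genes that lie opposite to them, were described in mouse embryonic stem cells (ESC) and cultured cortical neurons. Of 57010 genes in the deposited count table, 107 had a symbol beginning with one of the names of complex I to V subunits (Nduf with a, b, c, s or v, Sdha to Sdhd, Uqcr, Cox4 to Cox8, Atp5), and 9 of these had a symbol that ends in -ps, for pseudogene, and were left out. The remaining 98 are called respiratory chain genes here, and they include the complex I assembly factors that carry Ndufaf names. They also include 4 genes without that ending, Ndufs6b, Ndufb4c, Ndufa11b and Cox6c2, that the annotation used types as processed pseudogenes. A further 34 genes shared at least 1 exonic base with one of them on the opposite strand, in 34 pairs, and are called partners. Together they made 132 genes. Of the 98 respiratory chain genes 30 had a partner, 4 of them with 2 partners, and 68 had none.

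The ESC group held 3 libraries of wild-type embryonic stem cells, labelled as the cell line WT ESC. The neuron group held 3 libraries of primary cortical neurons from wild-type embryos, taken at embryonic day 16.5 and cultured for 7 days in vitro. The labels used here name no treatment for either group, and they do not give strain or sex. The library names of neuron replicates 2 and 3 hold the word empty, which is not explained. The labels give these samples as the pluripotent and neuronal reference states of a study of the gene Rai1, so the comparison asks what separates the reference states. The labelled batches, ESC and DIV7, coincide with the groups, so their effects cannot be told apart, and no source says whether replicates were separate cultures, so p-values measure only the spread between these samples.

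The respiratory chain passes electrons from NADH through complex I, or from succinate through complex II, to coenzyme Q, complex III, cytochrome c and complex IV, and complex V makes ATP from the proton gradient that results. Complex I has a small set of core subunits that carry the redox centres and many supernumerary subunits around them. Stem cells are known for a high rate of glycolysis, and neurons depend on oxidative phosphorylation. Many respiratory chain promoters are known to bind the nuclear respiratory factors NRF1 and GABP (whose alpha subunit is encoded by Gabpa) and the factor YY1.

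Several respiratory chain genes start back to back with their partner, and 5 promoter windows are printed because the pairs they belong to carry the results below or have starts less than 300 bases apart. The windows run from 250 bases before to 50 bases after a gene's start, 5′ to 3′ on the gene's strand, from RefSeq on build GRCm38.p6. Capitals mark matches to the NRF1 motif GCGCATGCG, the GABP motif CCGGAAG or the YY1 motif AAGATGGCG on either strand. The NRF1 motif nearly reads the same on both strands, so its matches can overlap. The windows are Atp5j at chr16:84834927-84835226 (minus strand), Ndufs3 at chr2:90904672-90904971 (minus), Ndufa11 at chr17:56717512-56717811 (plus), Atp5l at chr9:44920693-44920992 (minus) and Atp5f1 at chr3:105959214-105959513 (minus).
Atp5j: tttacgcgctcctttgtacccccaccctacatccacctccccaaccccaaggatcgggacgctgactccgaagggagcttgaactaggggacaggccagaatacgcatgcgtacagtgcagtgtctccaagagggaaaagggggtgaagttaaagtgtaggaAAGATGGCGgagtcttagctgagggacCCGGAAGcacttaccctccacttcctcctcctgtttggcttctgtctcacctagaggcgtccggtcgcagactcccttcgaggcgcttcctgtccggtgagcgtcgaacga
Ndufs3: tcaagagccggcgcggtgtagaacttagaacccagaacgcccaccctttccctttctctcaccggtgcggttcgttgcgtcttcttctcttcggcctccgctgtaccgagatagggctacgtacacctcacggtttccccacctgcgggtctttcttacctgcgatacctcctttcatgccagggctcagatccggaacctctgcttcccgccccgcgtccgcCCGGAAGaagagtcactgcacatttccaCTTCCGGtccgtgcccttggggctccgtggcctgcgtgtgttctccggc
Ndufa11: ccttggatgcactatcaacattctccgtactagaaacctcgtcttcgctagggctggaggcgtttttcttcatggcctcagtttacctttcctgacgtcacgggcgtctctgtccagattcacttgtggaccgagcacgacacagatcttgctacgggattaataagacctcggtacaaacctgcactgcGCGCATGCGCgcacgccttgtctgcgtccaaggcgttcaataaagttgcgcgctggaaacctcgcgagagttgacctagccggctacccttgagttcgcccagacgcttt
Atp5l: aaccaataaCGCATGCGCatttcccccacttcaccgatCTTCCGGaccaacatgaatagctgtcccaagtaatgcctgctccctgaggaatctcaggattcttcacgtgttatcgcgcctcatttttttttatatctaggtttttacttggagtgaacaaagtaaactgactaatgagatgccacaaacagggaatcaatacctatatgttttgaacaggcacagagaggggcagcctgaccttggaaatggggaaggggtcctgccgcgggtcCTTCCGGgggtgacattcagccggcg
Atp5f1: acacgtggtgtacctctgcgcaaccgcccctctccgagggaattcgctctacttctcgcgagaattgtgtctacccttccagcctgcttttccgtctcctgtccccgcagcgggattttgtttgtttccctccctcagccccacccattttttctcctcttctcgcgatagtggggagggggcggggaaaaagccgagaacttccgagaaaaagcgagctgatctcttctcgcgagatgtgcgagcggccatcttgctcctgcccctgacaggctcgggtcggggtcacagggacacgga

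The annotated start of Gabpa lay 148 bases upstream of the Atp5j start, on the other strand. Kbtbd4 started 19 bases upstream of Ndufs3, Vmac 63 bases upstream of Ndufa11 and Wdr77 235 bases upstream of Atp5f1, while the noncoding gene Gm30934 started 15 bases downstream of the Atp5l start. Of 11 head-to-head pairs with both starts in the promoter table, 7 had starts within 300 bases of each other. Windows were found for 76 of 97 respiratory chain symbols, 81 windows in all. The NRF1 motif was in 12.3% of these and in 1.75% of all 32817 windows of the same length, the GABP motif in 22.2% against 8.86%, and the YY1 motif in 9.88% against 1.40%. At least 1 of the 3 was in 37.0% of respiratory chain windows and 11.4% of all windows. In the 26 windows of partners the shares were 7.69% for NRF1, 26.9% for GABP, 7.69% for YY1 and 34.6% for any of them. The GABP share and the combined share of partners were near those of the respiratory chain genes. In head-to-head pairs with close starts, such as Atp5j and Gabpa, both windows cover some of the same bases. A match can then count for both genes, so the windows of genes and partners are not independent. These are shares of windows holding the letters, and a match is not a shown binding site. The printed Atp5j window holds a GABP match, and its partner Gabpa encodes a subunit of that factor.

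The libraries held 513425 to 1775055 counts each, with ESC libraries on average 2.73 times as deep. Levels are given in CPM, a count divided by its library total after TMM scaling, a correction for library composition. A count of 3 corresponded on average to 2.62 CPM in ESC and 4.40 CPM in neuron libraries, which is the floor below which a level could not be read. Such floors, like all counting intervals below, cover counting error only. Of the ESC marker list, 6 of 10 genes could be tested and all 6 were lower in neurons, with Pou5f1, Nanog, Zfp42, Esrrb, Utf1 and Dppa5a at 0 in every neuron library. Of the neuron marker list 4 of 10 could be tested. Map2 and Nefm were higher in neurons, Stmn2 was lower and Syn1 did not pass, while Tubb3 had 4, 2 and 1 counts and Snap25 3, 3 and 0 in the neuron libraries, and Rbfox3 and Snap25 were at 0 in all ESC libraries. The 3 partners of neuron markers were all higher in neurons, at a summed 2860 to 3040 CPM against 54.3 to 55.7 in ESC. The marker list itself summed to 1080 to 1310 against 176 to 231. Most of this sum was Nefm, at 1120 ± 121 CPM in neurons and 137 ± 21.9 in ESC (SD, n = 3). Nefm and the marker Nefl share 1108 bases on opposite strands, and both are counted as markers only, not among the 3 partners. The 3 partners of ESC markers summed to 20500 to 20800 CPM in ESC and 0 in every neuron library, and the ESC markers themselves to 187 to 250 in ESC and 4.47 to 9.14 in neurons. The summed level of the astrocyte list was 41.7 to 67.1 CPM in neuron and 2.71 to 5.27 in ESC libraries, with Slc1a2, Slc1a3, Aqp4 and S100b at 0 in ESC, and its 2 partners summed to 1270 to 1840 against 169 to 199 CPM. For these 3 lists the partners thus summed higher than the markers in the cells that the markers define or, for astrocytes, in the neuron libraries. The oligodendrocyte lineage list summed to 262 to 290 CPM in neurons against 42.1 to 60.9 in ESC. Its 3 partners summed to 350 to 477 CPM in neurons against 1.81 to 5.27 in ESC. The microglia list summed to 130 to 145 CPM in neurons against 201 to 266 in ESC. Its 3 partners went the other way, summing lower than the markers in both groups. They were at 27.2 to 44.4 CPM in neurons against 10.5 to 12.6 in ESC. Of the microglia markers, P2ry12 was at 0 in ESC and Tmem119 at 0 in all 6 libraries. The fibroblast list summed to 1.49 to 3.21 against 0 to 0.967 CPM, with Dcn and Col1a2 at 0 in ESC, Col1a1 at 0 in neurons and Lum at 0 in all 6 libraries. The part of other cell types in the results below was not tested.

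The respiratory chain genes held few counts. In ESC their counts summed to 3208, 2511 and 2756, or 2450 ± 42.3 CPM (SD, n = 3), and in neurons to 567, 491 and 470, or 742 ± 10.9 CPM. That was 0.184% ± 0.00292 of all counts in ESC and 0.0902% ± 0.00173 in neurons, a summed CPM 3.30-fold higher in ESC (log2 difference, neuron minus ESC, −1.72). The partners held far more. Their counts summed to 37200, 27340 and 30992 in ESC and 4027, 3703 and 3398 in neurons, which is 27500 ± 908 and 5410 ± 136 CPM, 5.09-fold higher in ESC (log2 difference −2.35). Partners held 2.06% ± 0.057 of all counts in ESC and 0.657% ± 0.0112 in neurons. The groups did not overlap in either sum, and a two-sided exact permutation test gave p = 0.1 for each, the least that 3 against 3 samples can give. In bulk samples, fewer cells of a type and less RNA per cell cannot be told apart.

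Taking genes and partners together, partners held 92.1%, 91.6% and 91.8% of the counts in ESC and 87.7%, 88.3% and 87.8% in neurons. The difference, neuron minus ESC, was −3.89 percentage points, with no overlap between the groups (exact two-sided permutation p = 0.1, the smallest possible). The strand setting of the authors' counting is not stated in the sources used here. How reads from a gene and from its opposite-strand partner were separated is therefore not known. Whether a count came from the strand of the gene it is listed under was not tested. A low count is thus not shown to mean little mRNA of that gene, nor a high count much. In ESC Pou5f1 had 51, 29 and 43 counts and its partner Gm19553 had 18559, 13967 and 15649. In neurons Syp had 5, 0 and 6 counts and its partner Gm14703 had 1355, 1218 and 1142. Atp5f1 had more counts than either of its 2 partners in all 6 libraries. For none of these pairs was it tested which strand the counts came from. All values below are counts as the deposited table assigns them.

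**Figure D1:**
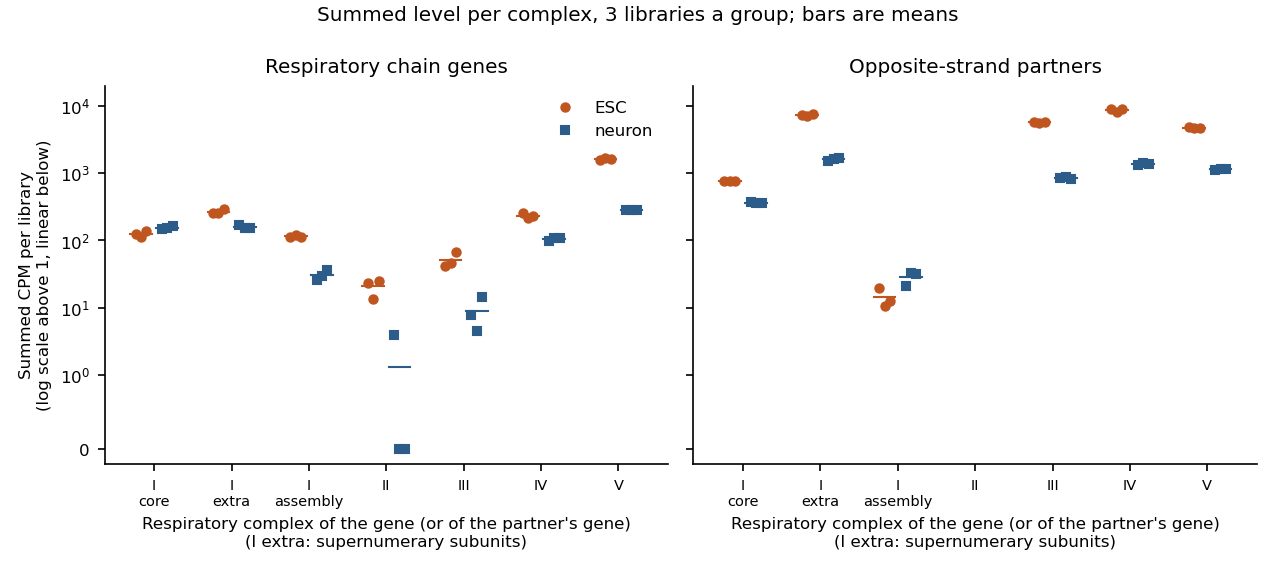
Summed CPM (vertical axis, log scale above 1 and linear below) of the respiratory chain genes of each complex (left) and of their partners (right), with 1 point per library, circles for ESC, squares for neurons and bars for means of 3. ESC points lie above neuron points for each complex with data except the complex I core genes and the partners of complex I assembly genes; no complex II gene had a partner.

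By complex, the summed level was lower in neurons everywhere except in the complex I core. The 7 core genes of complex I summed to 124, 112 and 140 CPM in ESC and 149, 153 and 162 in neurons, with every neuron library above every ESC library (log2 difference 0.31). Ndufs1 alone went from 21.1 ± 1.33 to 70.4 ± 4.26 CPM (SD, n = 3), a larger step than that of the sum. The other core genes together therefore did not rise. The 32 supernumerary complex I genes went from 269 ± 21.2 to 158 ± 11.4 CPM (SD, n = 3), but as a share of all counts, without the composition correction, they were at 0.0202% ± 0.00152 and 0.0192% ± 0.00153, within the spread between replicates. The 8 complex I assembly genes went from 116 ± 5.40 to 30.9 ± 5.47 CPM, the 8 complex III genes from 51.5 ± 13.5 to 8.91 ± 5.06, the 21 complex IV genes from 233 ± 20 to 106 ± 5.6 and the 18 complex V genes from 1630 ± 36.2 to 282 ± 1.55. The 4 complex II genes had 31, 14 and 28 counts in ESC against 3, 0 and 0 in neurons. Each of these 7 comparisons had an exact two-sided permutation p of 0.1, the smallest possible, and no neuron library overlapped an ESC library. Complex V alone gave most of the respiratory chain counts in ESC, and Atp5f1 and Atp5j gave most of those of complex V.

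Single genes were compared by the quasi-likelihood test of edgeR over all 7150 genes with enough counts, with p-values adjusted over all of them by the Benjamini-Hochberg method and 0.05 as the threshold. Only 25 of the 98 respiratory chain genes had enough counts to be tested. Of these, 11 were lower and 6 higher in neurons, and 8 did not pass. Over all genes tested, 85.6% passed, 38.6% lower and 47.0% higher. The median log2 fold change, neuron against ESC, was −0.50 over the 25 tested genes and 0.37 over all tested genes, and the range over the 25 was −7.37 to 1.76. The lowest value belongs to Ndufs6b, annotated as a processed pseudogene and with no counts in neurons, and is a fitted value, not a bound. Without the 4 annotated pseudogenes, 94 genes remained, of which 24 were tested, 10 were lower and 6 higher, with a median of −0.46 and a range of −7.26 to 1.76. Tested against a 2-fold change, 12 passed, 10 lower and 2 higher, where 67.4% of all genes passed, 29.4% lower and 38.0% higher. This count of 12 was 19, 20 and 20 without neuron replicate 1, 2 or 3, where 38 or 39 genes could be tested. The 73 genes outside the test are part of the list too: 52 of the 98 had no library with more than 10 counts, 27 were at 0 in all neuron libraries and 3, Cox6c2, Cox7b2 and a second gene with the symbol Atp5o, were at 0 in all 6. With no filter on low counts, 95 genes were tested and 42 were lower and 5 higher, where 19.6% of all genes were lower and 21.2% higher. The median log2 fold change of all genes was then −0.09.

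Of the 34 partners 26 could be tested, 21 were lower and 3 higher in neurons, and 2 did not pass. The filter acted on partners too, and Tmco6, called higher, reached its level in neuron libraries only. Over all 7150 tested genes 38.6% were lower and 47.0% higher. Counts of partners and of subgroups below that come from the same test stand beside these shares. The median log2 fold change over the tested partners was −1.77 and the range −5.58 to 1.78. All 21 lower partners also passed against a 2-fold change, as did 1 of the 3 higher ones. Over all tested genes 29.4% passed this test as lower and 38.0% as higher. With total counts 12 lower and 3 higher partners passed against a 2-fold change, where 4851 of all 7150 genes passed. When libraries were scaled to total counts alone, the median log2 fold change of all genes rose by 0.73. The respiratory chain genes then split into 10 lower and 9 higher, and the partners into 21 lower and 4 higher. With this scaling 6186 of all 7150 genes passed, and their split by direction is not given here. Respiratory chain genes with a partner had 15 tested, 5 lower and 4 higher, with a median log2 fold change of −0.43. Those with no partner had 10 tested, 6 lower and 2 higher, with a median of −4.07, or −2.31 when genes at 0 in all neuron libraries were set to their bound against 3 counts per library. Over all members of each group the summed CPM was 3.26-fold higher in ESC for the 30 genes with a partner. For the 68 without, it was 3.44-fold higher. Atp5f1 and Atp5j gave most of the sum of the 30 genes in ESC, at 809 and 515 of 1890 CPM. With no filter on low counts 15 of the 30 tested genes with a partner and 27 of the 65 without were lower. Over all genes in that fit 19.6% were lower. The difference between genes with and without a partner was not tested.

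**Figure D2:**
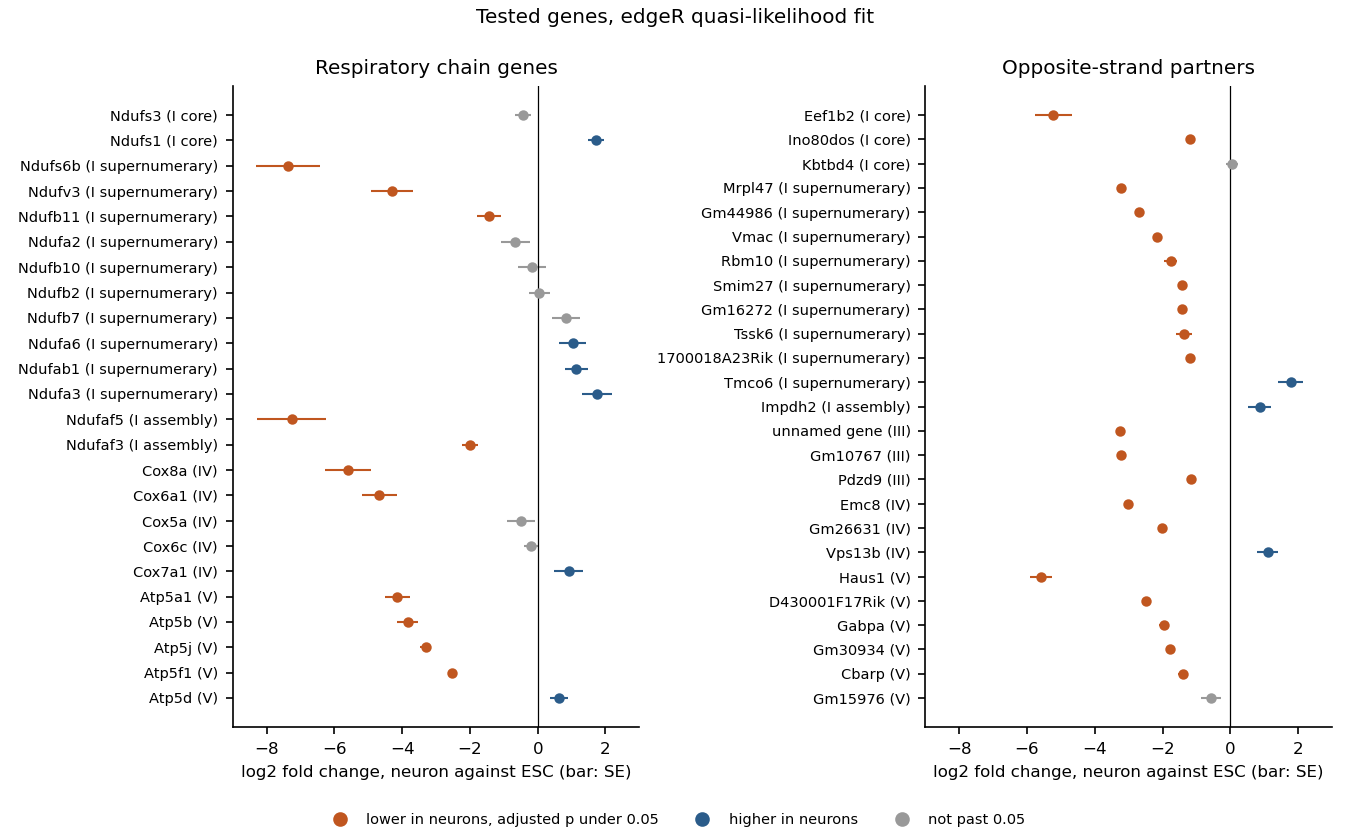
Log2 fold change of neuron against ESC (horizontal axis, bars are SE) for 24 tested respiratory chain genes (left) and 25 tested partners (right), ordered by complex, with the complex in brackets. Colours mark genes lower or higher in neurons at the 0.05 threshold of the edgeR test and genes that did not pass; partners lie mostly left of 0, with the called genes Tmco6, Impdh2 and Vps13b, and Kbtbd4 close to 0, to its right.

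Levels were also divided by exon length, to set genes of different length side by side. Whether counts grow with exon length in these libraries, which were primed with oligo-dT, was not tested. Per kilobase of exons, the median respiratory chain gene was at 3.50 CPM per kb in ESC and 0.635 in neurons. The median partner was at 70.5 and 28.6 CPM per kb. Partners were above their gene in 23 of 34 pairs in ESC and 22 of 34 in neurons, and in 19 pairs the partner had more counts than the gene in all 6 libraries. The pairs were arranged head-to-head (overlapping at their starts) in 19 cases, tail-to-tail (overlapping at their ends) in 12, and with one gene inside the other's span in 3. Head-to-head partners were tested in 16 cases, of which 15 were lower and none higher. Tail-to-tail partners were tested in 8 cases, of which 4 were lower and 3 higher. The difference between these arrangements was not tested.

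The shared stretch ran from 4 to 1955 bases with a median of 155. Of the 34 partners 23 are annotated as protein coding, 10 as other types such as antisense or long intergenic RNA, and 1 had no match in the annotation. The 10 partners of other types had a median of 764 CPM per kb in ESC, against 23.5 for the 23 coding ones. The 22 partners that share at least 100 bases with their gene had a median of 122 CPM per kb in ESC, and the 12 that share fewer had 13.5. Of the 34 partners 11 also share exonic bases with a further gene on the opposite strand, so their counts lie opposite to more than the respiratory chain gene.

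**Figure D3:**
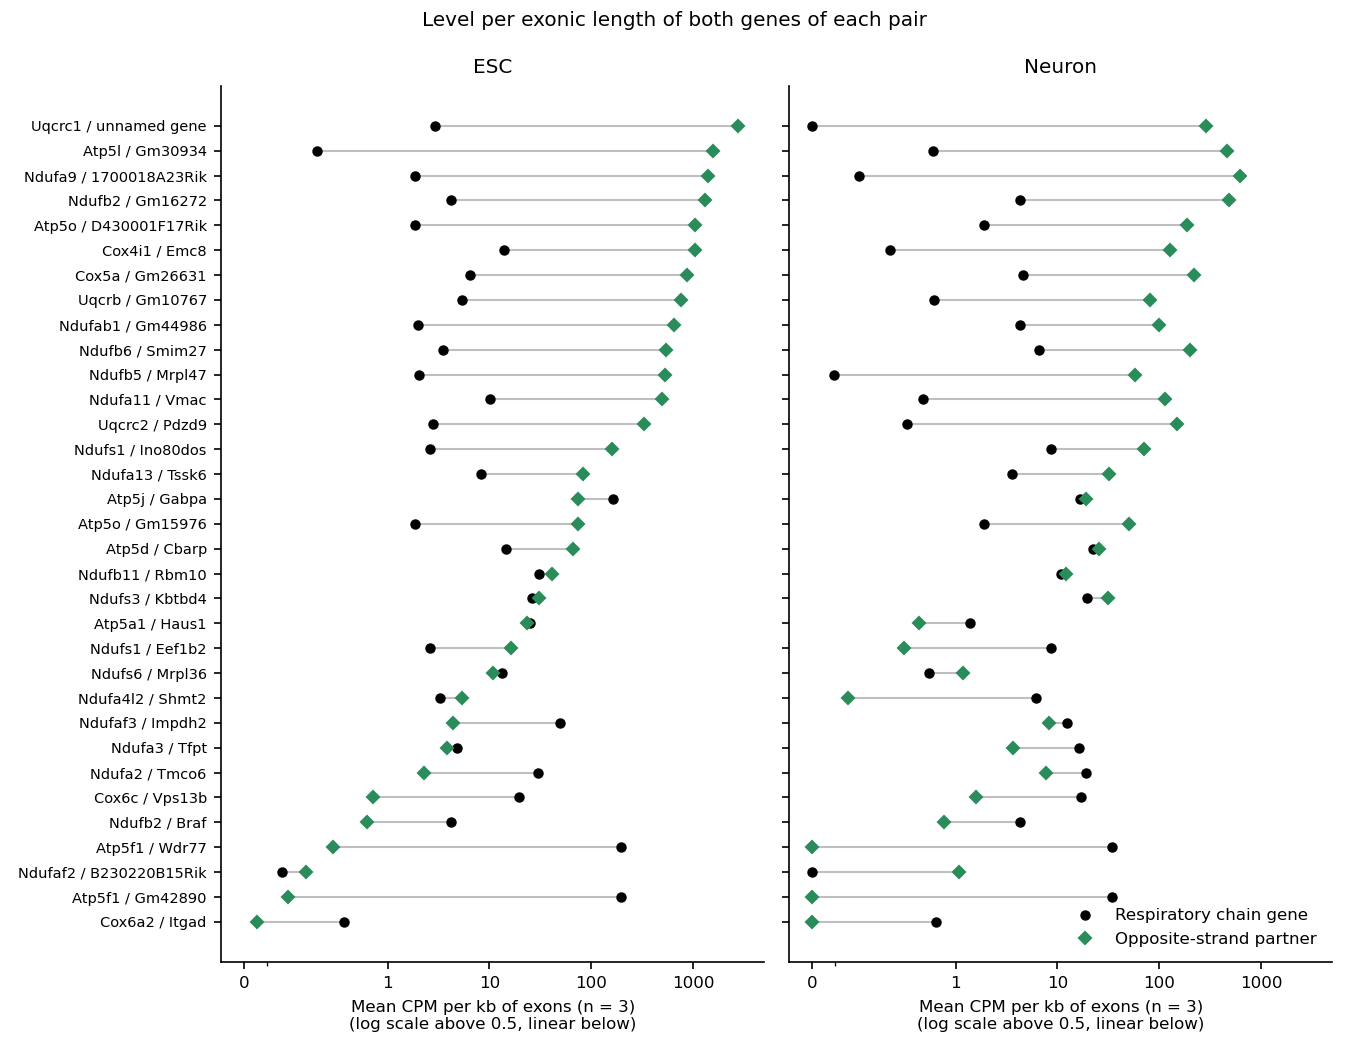
Mean CPM per kilobase of exons (horizontal axis, log scale above 0.5) of the respiratory chain gene (black circle) and the partner (green diamond) of 33 pairs, joined by a line, in ESC (left) and neurons (right), ordered by the partner's level in ESC. The upper pairs have partners far above their gene, and in the lower pairs, among them Atp5f1 and Ndufaf3, the gene is above the partner.

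Among the core genes of complex I, Ndufs1, the largest core subunit and a carrier of iron-sulfur clusters, had 27, 21 and 25 counts in ESC against 55, 44 and 46 in neurons. All neuron libraries were above all ESC libraries after scaling, at 70.4 ± 4.26 against 21.1 ± 1.33 CPM (SD, n = 3), and the rise passed the test (log2 change 1.73 with SE 0.24, edgeR adjusted p 4.3e-08). Ndufs1 has 2 partners. The noncoding gene Ino80dos, which shares 775 exonic bases with its 3′ part and 480 with Ino80d, fell from 597 ± 11.1 to 263 ± 4.45 CPM (log2 change −1.18 with SE 0.12, edgeR adjusted p 8.78e-12). Eef1b2, a translation elongation factor subunit that shares 9 bases at the start, had 58, 36 and 49 counts in ESC against 0, 1 and 1 in neurons, a ratio of 42.5 (95% exact interval 11.6 to 354, edgeR adjusted p 4.13e-11). Gene and partners thus went in opposite directions in this pair of overlaps.

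Ndufs3, a core subunit of the peripheral arm, had 72, 58 and 69 counts in ESC against 30, 33 and 25 in neurons, 57.6 ± 4.32 against 42.8 ± 5.54 CPM (SD, n = 3). The groups did not overlap, but the difference did not pass (log2 change −0.43 with SE 0.23, edgeR adjusted p 0.0832), scaling to total counts turned its sign (0.30), and it passed as lower without ESC replicate 2 (−0.51, adjusted p 0.0377), without neuron replicate 2 (−0.60, adjusted p 0.0326) and with no filter (−0.59, adjusted p 0.0384). Its partner Kbtbd4, an adaptor of a ubiquitin ligase that shares 88 bases with Ndufs3 and 1657 with Ptpmt1, was at 96.2 ± 15.5 and 99.5 ± 7.76 CPM, with overlapping groups (edgeR adjusted p 0.769), but it passed as higher with total counts (0.79) and with a filter on a mean of at least 10 counts (0.42). Of the other core genes, Ndufv2, Ndufs7 and Ndufs8 had between 3 and 16 counts in each library with overlapping groups. Ndufv1, which binds the flavin that accepts electrons from NADH, had 12, 6 and 14 counts in ESC against 2, 0 and 0 in neurons.

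The supernumerary genes of complex I were spread in both directions: 10 of 32 were tested, 3 were lower, 3 higher and 4 did not pass. Ndufb11 fell (27.8 ± 1.96 to 9.88 ± 5.11 CPM, SD, n = 3, log2 change −1.44 with SE 0.36, edgeR adjusted p 0.00046). Ndufv3 had 32, 21 and 23 counts in ESC against 1, 0 and 1 in neurons, a ratio of 22.6 (95% exact interval 6.04 to 190, edgeR adjusted p 6.37e-08). Ndufs6b had 24, 22 and 31 counts in ESC and none in any neuron library, at least 5.11-fold lower against 3 counts per library (edgeR adjusted p 8.95e-09). Ndufs6b is typed as a processed pseudogene in the annotation used and named as a copy of Ndufs6, and how reads were split between the copies is uncertain. Without the annotated pseudogenes, 9 of 29 supernumerary genes were tested, 2 were lower and 3 higher. Ndufab1, the acyl carrier protein of mitochondrial fatty acid synthesis, rose from 13.7 ± 5.38 to 29.5 ± 6.25 CPM (log2 change 1.14 with SE 0.34, edgeR adjusted p 0.00243), a call that was lost without ESC replicate 1 (0.73, adjusted p 0.0566). Ndufa3 had 6, 6 and 5 counts in ESC against 19, 7 and 9 in neurons (log2 change 1.76 with SE 0.44, edgeR adjusted p 0.000381), and it shares 4 bases with Tfpt, a chromatin remodelling subunit at 4.60 ± 4.11 and 4.36 ± 1.43 CPM. Ndufa6 rose from 7.61 ± 2.02 to 16.0 ± 0.366 CPM (edgeR adjusted p 0.016), but did not pass without ESC replicate 2 or 3, without neuron replicate 2 or 3, with no filter or with DESeq2 (adjusted p 0.0509 to 0.101). Ndufb2 was at 23.6 ± 4.26 and 24.2 ± 1.54 CPM (edgeR adjusted p 0.889), and passed as higher with total counts alone (0.78).

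The partners of supernumerary genes were mostly high and lower in neurons: of 9 tested, 8 were lower and 1 higher. Mrpl47, a protein of the mitochondrial ribosome, shares 616 exonic bases with Ndufb5 at chromosome 3, 32791139 to 32791754 (table coordinates, build GRCm39 per the submitters' processing notes), and 452 with Actl6a. Its counts were 3240, 2398 and 2605 in ESC and 184, 165 and 174 in neurons, 2370 ± 60.7 against 255 ± 20.9 CPM (SD, n = 3, log2 change −3.22 with SE 0.11, edgeR adjusted p 6.15e-26). Ndufb5 itself had 13, 12 and 10 counts in ESC against 0, 1 and 0 in neurons, and the partner had the higher count in all 6 libraries. Gm44986, which lies inside Ndufab1 and shares 269 bases, fell from 1830 ± 192 to 284 ± 37.1 CPM (log2 change −2.69 with SE 0.12, edgeR adjusted p 1.69e-22) while Ndufab1 rose. Vmac, opposite Ndufa11, fell from 1230 ± 30.5 to 278 ± 16.7 CPM (−2.15), and Ndufa11 had 15, 9 and 15 counts in ESC against 0, 0 and 1 in neurons. Smim27 (opposite Ndufb6), Gm16272 (opposite Ndufb2), 1700018A23Rik (opposite Ndufa9), Rbm10 (an RNA-binding splicing regulator opposite Ndufb11) and Tssk6 (a testis kinase opposite Ndufa13) had log2 fold changes of −1.42, −1.42, −1.18, −1.76 and −1.37, all past the threshold.

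One partner of a supernumerary gene went the other way. Tmco6, which shares 66 bases with the end of Ndufa2, had 8, 11 and 7 counts in ESC against 19, 22 and 13 in neurons and rose (log2 change 1.78 with SE 0.37, edgeR adjusted p 3.97e-05), while Ndufa2 was at 17.1 ± 7.95 and 11 ± 7.18 CPM (SD, n = 3, edgeR adjusted p 0.146). The kinase gene Braf, which shares 146 bases with the end of Ndufb2, had between 5 and 11 counts in every library and was not tested. Mrpl36, opposite Ndufs6, had 26, 11 and 8 counts in ESC against 2, 1 and 0 in neurons, and Ndufs6 had 19, 13 and 10 in ESC and 0, 1 and 0 in neurons. Neither had enough counts to be tested.

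Of the 8 complex I assembly genes 2 were tested and both were lower. Ndufaf3, an assembly factor of the peripheral arm, had 122, 93 and 95 counts in ESC against 14, 15 and 17 in neurons, 89.3 ± 2.99 against 22.6 ± 4.49 CPM (SD, n = 3, log2 change −1.99 with SE 0.24, edgeR adjusted p 2.23e-09). Its partner Impdh2, an enzyme of guanine nucleotide synthesis that shares 48 bases with its end, had 23, 11 and 14 counts in ESC against 14, 21 and 17 in neurons, higher in neurons after scaling (log2 change 0.87 with SE 0.34, edgeR adjusted p 0.0167). Impdh2 did not pass without ESC replicate 2 or 3, without neuron replicate 2 or 3, with no filter or with DESeq2 (adjusted p 0.0609 to 0.13). Ndufaf5, which modifies a core subunit during assembly, had 19, 31 and 21 counts in ESC and none in any neuron library, at least 4.8-fold lower against 3 counts per library (edgeR adjusted p 4.08e-08). The other 6 assembly genes had at most 4 counts in any library. One of them, Ndufaf2, shares 1955 bases with the noncoding gene B230220B15Rik, which was at 0.753 ± 1.30 and 2.97 ± 1.69 CPM.

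No gene of complex II, which oxidises succinate, had a partner and none was tested. Sdha, the flavoprotein, had 15, 7 and 14 counts in ESC and none in any neuron library, at least 2.33-fold lower against 3 counts per library. Sdhb, the iron-sulfur subunit, had 3, 1 and 9 counts in ESC against 2, 0 and 0 in neurons. The membrane anchors Sdhc and Sdhd had 4, 3 and 2 and 9, 3 and 3 counts in ESC, and 1, 0 and 0 and 0, 0 and 0 in neurons. All 4 were at or under the floor of 3 counts in every neuron library.

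No complex III gene was tested either, but all 3 of their partners were, and all 3 fell. Uqcrc1, a core protein of the complex, had 12, 7 and 23 counts in ESC and none in any neuron library. The gene ENSMUSG00000120796.1, which has no symbol in the annotation used, shares 502 bases with Uqcrc1 in 2 blocks between positions 108765701 and 108766224 of chromosome 9. It had 4543, 3147 and 3712 counts in ESC against 284, 213 and 214 in neurons, 3270 ± 201 against 344 ± 26.6 CPM (SD, n = 3, log2 change −3.25 with SE 0.11, edgeR adjusted p 2.11e-26). At 2760 CPM per kb in ESC it was the highest of the 34 partners per length. Gm10767, which shares 50 bases with Uqcrb and 33 with Mterf3, fell from 1720 ± 159 to 184 ± 32.7 CPM (log2 change −3.23 with SE 0.12, edgeR adjusted p 4.12e-24). Pdzd9, which shares 504 bases with the end of Uqcrc2, fell from 728 ± 10.2 to 328 ± 13.4 CPM (log2 change −1.15 with SE 0.11, edgeR adjusted p 5.8e-12). Uqcrc2 had 6, 7 and 11 counts in ESC against 0, 0 and 2 in neurons, and Uqcrh, a small subunit next to cytochrome c1, 11, 4 and 10 and 4, 1 and 3. Uqcrfs1, the Rieske iron-sulfur protein, had at most 3 counts in any library.

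**Figure D4:**
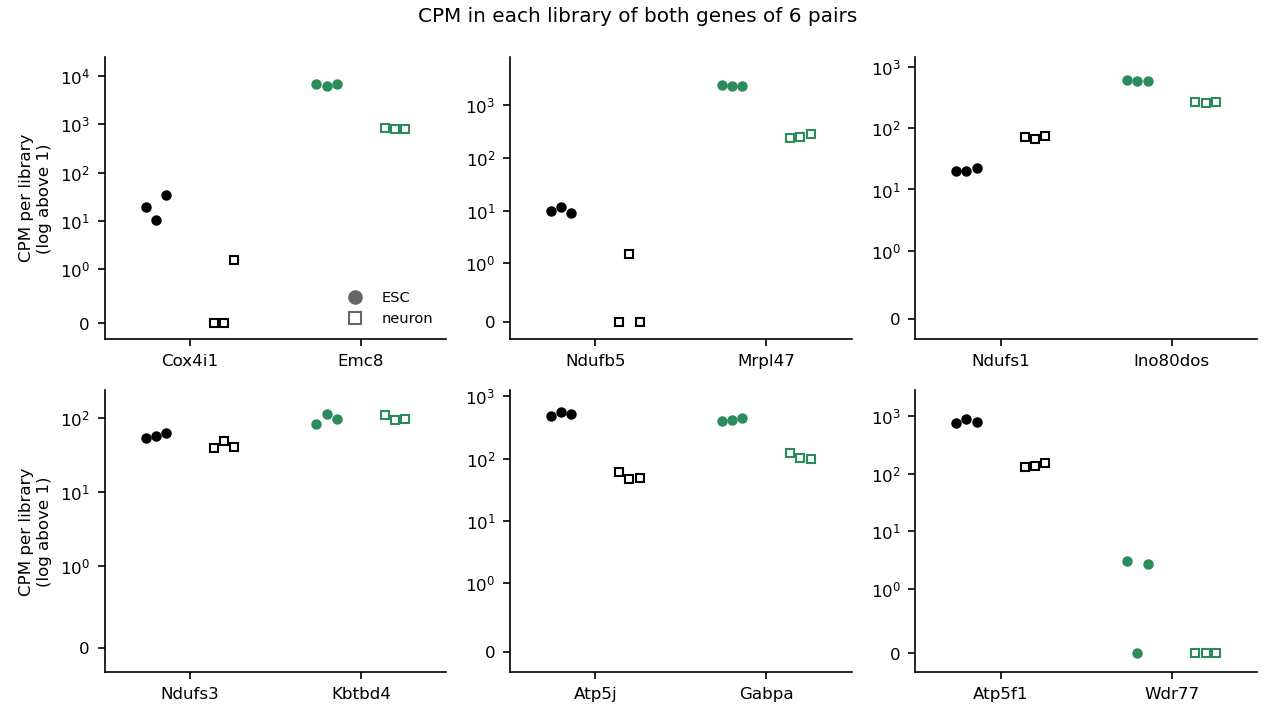
CPM in each library (vertical axis, log scale above 1) for both genes of 6 pairs, the respiratory chain gene in black and the partner in green, filled circles for ESC and open squares for neurons. Emc8 and Mrpl47 lie far above Cox4i1 and Ndufb5 in all libraries, Ndufs1 and Ino80dos move in opposite directions, and Atp5f1 lies far above Wdr77.

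In complex IV, the oxidase that reduces oxygen, the largest values belonged to Emc8, a subunit of the endoplasmic reticulum membrane protein complex. Emc8 shares 154 bases with the start of Cox4i1 at chromosome 8, 121394961 to 121395114. Its counts were 8895, 6372 and 7533 in ESC and 627, 542 and 505 in neurons, 6560 ± 347 against 812 ± 5.68 CPM (SD, n = 3, log2 change −3.01 with SE 0.10, edgeR adjusted p 8.9e-27). Cox4i1, the ubiquitous isoform of subunit 4, had 26, 11 and 38 counts in ESC against 0, 0 and 1 in neurons, a ratio of 44.6 (95% exact interval 7.76 to 1780). Emc8 thus held 99.7% of the counts of the pair in ESC and 99.9% in neurons, and it was the partner with the most counts of all 34. Without it the difference in partner share between the groups was −3.44 percentage points in place of −3.89. Gm26631, which shares 269 bases with the end of Cox5a and 102 with Fam219b, fell from 2200 ± 208 to 545 ± 41.7 CPM (log2 change −2.01 with SE 0.11, edgeR adjusted p 6.87e-20), while Cox5a was at 13.6 ± 4.24 and 9.65 ± 3.53 CPM (edgeR adjusted p 0.258).

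Cox6c had the most counts of the complex IV genes, 94, 77 and 70 in ESC and 47, 41 and 38 in neurons (69.5 ± 5.67 and 61.1 ± 0.216 CPM, SD, n = 3). It did not pass (log2 change −0.19 with SE 0.21, edgeR adjusted p 0.401), and its direction turned under total counts (0.55) and with a filter on a mean of at least 10 counts (0.18). Its partner Vps13b, a lipid transfer protein of the Golgi that shares 250 bases with its end and 368 with Gm48960, rose from 15.2 ± 4.77 to 33.4 ± 3.47 CPM (log2 change 1.11 with SE 0.31, edgeR adjusted p 0.00129).

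Several complex IV subunits have isoforms that differ between tissues, and their counts are given side by side. Cox6a1, the common isoform, had 58, 33 and 50 counts in ESC against 1, 0 and 2 in neurons, a ratio of 27.9 (95% exact interval 9.37 to 137, edgeR adjusted p 1.96e-10), while the muscle isoform Cox6a2 had 1 count in ESC and 1 in neurons in total, and its partner Itgad, an integrin subunit gene, 1 in ESC. Cox8a had 44, 34 and 26 counts in ESC against 0, 1 and 0 in neurons, a ratio of 61.8 (95% exact interval 10.9 to 2470, edgeR adjusted p 1.12e-09). The muscle isoform Cox8b had 1, 0 and 0 in ESC and 1, 3 and 3 in neurons, and the testis isoform Cox8c 1 count in all. Cox7a1, the muscle isoform, had 11, 6 and 5 counts in ESC against 9, 7 and 9 in neurons, higher in neurons after scaling (log2 change 0.92 with SE 0.43, edgeR adjusted p 0.0431), a call that was lost without any 1 of the neuron replicates, with no filter, with DESeq2 and with the replicate block (adjusted p 0.0823 to 0.216). Its counterpart Cox7a2 had 5, 3 and 4 counts in ESC and 0 in neurons. Cox6b1 and the testis isoform Cox6b2 had 14, 6 and 7 and 9, 5 and 8 counts in ESC, and 0, 1 and 0 and 0, 0 and 1 in neurons. Cox4i2, the isoform known from lung and low oxygen, had at most 2 counts in any library. Ndufa4, now counted as a complex IV subunit, had 16, 10 and 7 counts in ESC and none in any neuron library, at least 2.13-fold lower against 3 counts per library. Its relative Ndufa4l2, which is induced by low oxygen, had 2, 4 and 6 in ESC and 6, 3 and 5 in neurons, and the partner of Ndufa4l2, the serine hydroxymethyltransferase gene Shmt2, 27, 13 and 19 in ESC and 0, 1 and 0 in neurons, a ratio of 35.1 (95% exact interval 6.05 to 1410).

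Complex V held the respiratory chain genes with the most counts, and here the gene was not always the lower one of its pair. Atp5f1, subunit b of the stator stalk, had 1014, 899 and 878 counts in ESC against 101, 89 and 97 in neurons, 809 ± 54.7 against 140 ± 13.4 CPM (SD, n = 3, log2 change −2.53 with SE 0.13, edgeR adjusted p 1.59e-20). Its partner Wdr77, a cofactor of the arginine methyltransferase Prmt5, shares 337 bases in 2 blocks and had 4, 0 and 3 counts in ESC and 0 in neurons, and the noncoding Gm42890, opposite the same start, had 0, 1 and 1 and then 0. This was the reverse of the Cox4i1 pair: the respiratory chain gene had more counts than either partner in all 6 libraries. Atp5j, coupling factor 6, had 636, 574 and 566 counts in ESC against 47, 31 and 30 in neurons, 515 ± 38.4 against 51.9 ± 8.25 CPM (log2 change −3.30 with SE 0.16, edgeR adjusted p 3.07e-21). Its partner Gabpa, with 397 shared bases in 3 blocks, had 537, 437 and 493 counts in ESC against 93, 68 and 62 in neurons, and fell from 424 ± 21.0 to 107 ± 12.2 CPM (log2 change −1.97 with SE 0.14, edgeR adjusted p 1.05e-15). In this pair both genes were well above the floor and both fell. Per length, Atp5j was above Gabpa in ESC (165 and 74.6 CPM per kb) and the levels were 16.6 and 18.9 CPM per kb in neurons.

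The catalytic subunits alpha and beta, Atp5a1 and Atp5b, fell from 79.2 ± 17.5 to 4.36 ± 1.43 and from 127 ± 30.3 to 8.91 ± 6.6 CPM (SD, n = 3), with log2 fold changes of −4.14 and −3.84. Haus1, a spindle augmin subunit that shares 129 bases with the start of Atp5a1, had 249, 180 and 160 counts in ESC against 2, 4 and 1 in neurons, the lowest log2 fold change of the tested partners (−5.58, SE 0.33, edgeR adjusted p 2.37e-18). Atp5b had no partner. Atp5d, the delta subunit, rose from 27.7 ± 3.47 to 42.9 ± 3.61 CPM (log2 change 0.63 with SE 0.26, edgeR adjusted p 0.0219), a call lost without ESC replicate 1 or 2, without neuron replicate 1 or 2, with no filter and with DESeq2 (adjusted p 0.0583 to 0.163), while its partner Cbarp, a regulator of calcium channels that shares 68 bases with Atp5d and 232 with Stk11, fell from 333 ± 31.0 to 127 ± 9.04 CPM (log2 change −1.39 with SE 0.14, edgeR adjusted p 2.88e-11). The remaining 13 complex V genes were not tested. Among them Atp5l, subunit g, had between 1 and 4 counts in every library, against 2471, 1870 and 2064 in ESC and 387, 402 and 314 in neurons for Gm30934 on the other strand (log2 change −1.78 with SE 0.10, edgeR adjusted p 1.97e-18). Atp5o, which encodes the oligomycin sensitivity protein, had between 1 and 6 counts in every library, and its partner D430001F17Rik, with 346 shared bases, fell from 1970 ± 83.4 to 353 ± 42.6 CPM (log2 change −2.48 with SE 0.11, edgeR adjusted p 2.84e-22). A second gene opposite Atp5o, Gm15976, was at 31.8 ± 3.87 and 21.5 ± 1.63 CPM and did not pass (edgeR adjusted p 0.0658).

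**Figure D5:**
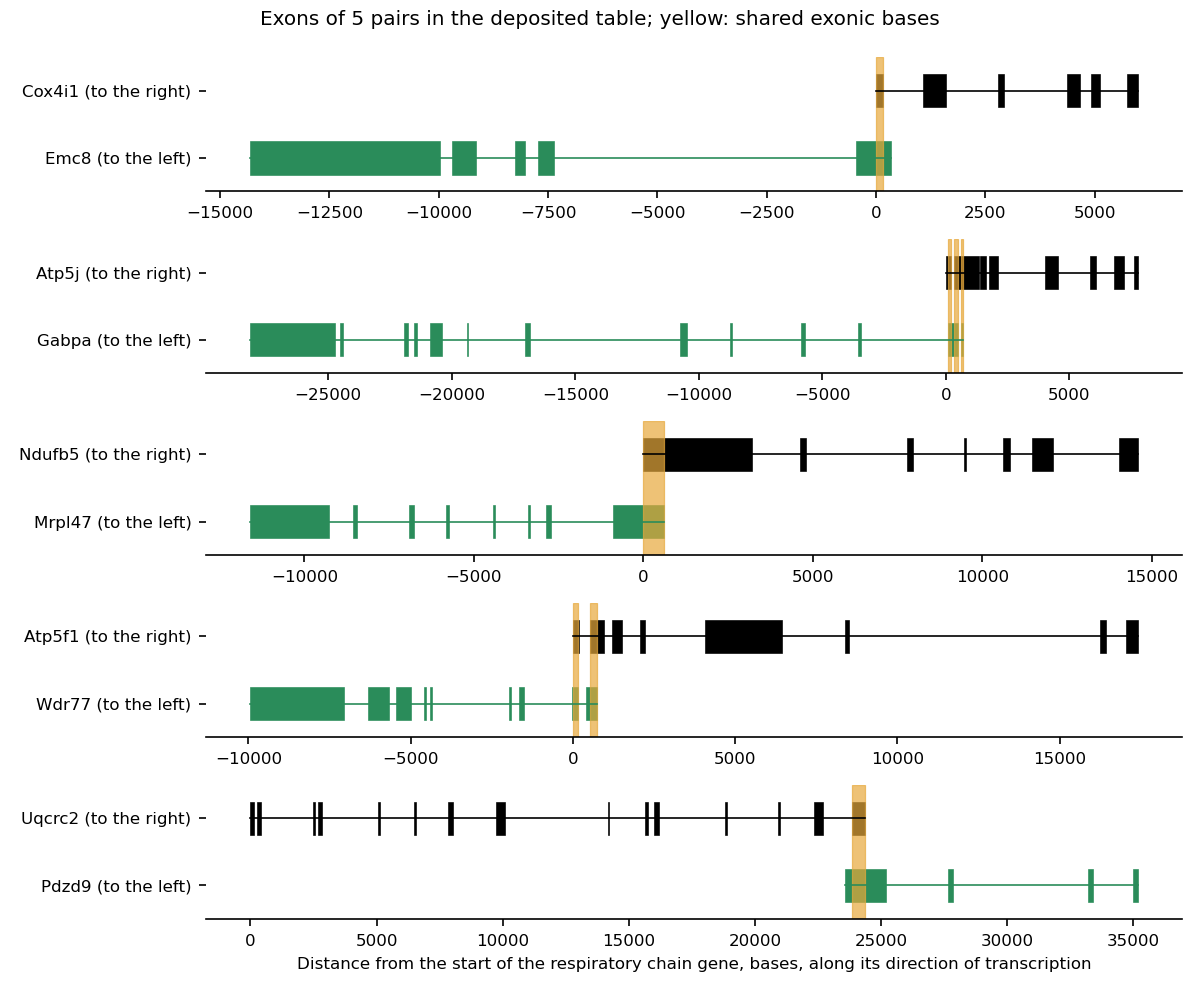
Exons (boxes) of 5 pairs, drawn in the direction of the respiratory chain gene with the distance from its start in bases on the horizontal axis, the respiratory chain gene in black, its partner in green and the shared exonic bases in yellow. The shared bases lie at the starts of Cox4i1, Atp5j, Ndufb5 and Atp5f1 and at the end of Uqcrc2.

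Direction within a pair could be compared in the 14 pairs with both genes tested. Both fell in 3 of them, Ndufb11 with Rbm10, Atp5j with Gabpa and Atp5a1 with Haus1. The respiratory chain gene rose and the partner fell in 4. These were Ndufs1 with each of its partners, so counted more than once, Ndufab1 with Gm44986 and Atp5d with Cbarp. The reverse was found in 1, Ndufaf3 with Impdh2. The calls of Ndufab1, Atp5d and Impdh2 were lost in the alternatives given above. In the other 6 pairs at least 1 gene did not pass.

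Genes of neighbouring pathways were counted in the same fit, with their own partners found by the same overlap rule, and their counts stand beside 38.6% lower and 47.0% higher over all tested genes. Of 18 electron carrier genes (cytochrome c and c1, coenzyme Q synthesis and the dehydrogenases that feed it) 9 were tested, 4 lower and 4 higher. Etfdh, which passes electrons from fatty acid oxidation to coenzyme Q, fell from 111 ± 3.92 to 9.86 ± 9.54 CPM (SD, n = 3, edgeR adjusted p 6.24e-12), and Coq8a, a kinase-like protein of coenzyme Q synthesis, rose from 9.81 ± 5.59 to 89.7 ± 12.8 CPM (edgeR adjusted p 2.69e-12). All 4 of their tested partners were lower. Of 35 assembly factors outside the symbols above 7 were tested, 4 lower and 2 higher. The complex IV factor Cox20 fell from 1250 ± 63.7 to 104 ± 34.2 CPM (edgeR adjusted p 1.45e-20), and Cox15, which makes the heme of complex IV, rose from 12.1 ± 0.533 to 77.1 ± 15.0 CPM (edgeR adjusted p 3.14e-11). Of their 14 tested partners 10 were lower and 1 higher.

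Of 17 genes of the citric acid cycle and pyruvate dehydrogenase 6 were tested, 4 lower and 1 higher. All 4 tested partners of this list were lower, at a summed 5400 to 5830 CPM in ESC and 1840 to 2120 in neurons. Of 16 glycolysis genes 12 were tested, 9 lower and 2 higher, with a median log2 fold change of −3.04, or −2.22 with the genes at 0 in neurons at their bound. Gapdh had 238, 94 and 218 counts in ESC against 28, 20 and 19 in neurons (edgeR adjusted p 1.04e-08). Their 4 tested partners included 2 that were higher and none that was lower, in contrast to the lists above, a difference that was not tested. Of 12 regulators of mitochondrial biogenesis 6 were tested, 2 lower and none higher. These were Gabpa, above, and the coactivator Pprc1, which fell from 1020 ± 80.4 to 105 ± 14.6 CPM (edgeR adjusted p 1.44e-23). Yy1 and Gabpb1 did not pass. Nrf1, with 14, 6 and 11 counts in ESC against 1, 0 and 1 in neurons, was left out by the filter. Tfam, with 0, 5 and 3 counts in ESC and 0 in neurons, was left out too. All 5 tested partners of this list, Atp5j among them, were lower.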

How the data were processed

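RNA was measured in 3 ESC and 3 neuron libraries. The authors deposited 1 table that gives raw counts, exon coordinates and exon length for each gene, and every sample column of it was mapped to a sample. Per the submitters' processing notes, the tools included cutadapt, STAR and RSEM, and the build was GRCm39. Per the labels' protocols, polyadenylated RNA was primed with oligo-dT and sequenced in pairs. The counter's strand setting is not given in the sources used here. Length per gene, in bases, is as deposited in the table.

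Symbols came from a gene name table that matched 52029 of the 57010 gene IDs (91.3%). Gene types came from GENCODE M21, and promoter windows from RefSeq. Partners were found from the exon coordinates in the deposited table. Genes passing filterByExpr (a minimum count of 10) were fitted with edgeR 4.0.16 (TMM, robust quasi-likelihood) in R 4.3.3, with group alone in the model. SE is the absolute log2 change divided by the square root of F and is approximate. Sums and shares were compared with exact permutation tests. A gene with no neuron counts is given as a bound against 3 counts per library, and a group totalling 1 to 3 counts as a ratio with a 95% exact interval. DESeq2 1.42.0, total-count scaling, other filters, the replicate block and leaving out each library were alternatives. The 2-fold test was edgeR's glmTreat. The fit was tested on simulated counts.

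Members and lists were chosen with earlier results of these data known. The rule for named genes took the 2 genes and 2 partners with the highest mean CPM per complex, the 4 highest and 4 lowest log2 changes among called genes and among called partners with a mean of at least 10 counts, the Sdh genes and the isoform pairs of complex IV with their partners, and the tested genes with the fewest shared bases. Other members are named for their role or their pair, after their values were seen. Values of a few genes are not reported here, and 1 pair is not drawn in the plots of pairs and of log2 changes.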

Additional observations from a re-analysis of the deposited data

How the results depend on the processing

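The number of respiratory chain genes past the threshold (17 of 25 tested) lay between 12 and 24 when 1 library was left out, and was 47 of 95 with no filter on low counts. Against a 2-fold change the count of 12 rose to 39 with no filter and lay between 9 and 20 without 1 library. The number tested moved with it: 38 or 39 genes could be tested without a neuron replicate, and 18 to 21 without an ESC replicate. The total count of partners that passed, both directions together, stayed within 1.5 times the reported 24, and 22 against a 2-fold change, in each alternative. It was 23 to 26 without 1 library and, against a 2-fold change, 21 to 23. Against a 2-fold change with total counts the respiratory chain genes split into 9 lower and 7 higher, and the partners into 12 lower and 3 higher, against 21 and 1 as reported. In that setting 4851 of all 7150 tested genes passed, and their split by direction is not given here. Leaving out the genes annotated as pseudogenes, an alternative chosen after seeing the data, gave 16 respiratory chain genes, 11 against a 2-fold change, and a summed log2 difference of −1.71. DESeq2's own test found 11 lower and 3 higher respiratory chain genes and 21 lower and 2 higher partners.

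With total counts the log2 differences of the summed levels were −1.03 for respiratory chain genes and −1.65 for partners, and without 1 library they were −1.73 to −1.71 and −2.37 to −2.33. Counting only partners that share at least 100 bases gave −2.41 for the partner sum and −4.95 percentage points for the partner share. The share difference was −3.44 without Emc8 and −4.07 to −3.76 without 1 library.

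Of 33 named genes in 386 gene and setting combinations, 344 kept direction and side of the threshold, 25 lost a call, 6 gained one and 11 turned sign. The sign turned for 4 genes, none of which passed as reported. These were Ndufs3 with total counts (0.30), Cox6c with total counts (0.55) and with genes filtered at a mean count of 10 (0.18), Kbtbd4 with no filter (−0.10) and without 1 library (−0.13 to 0.12), and Ndufb2 with no filter (−0.11) and without 1 library (−0.16 to 0.08). The cause was not tested for any of these. Adding the replicate number to the model as a block gave 16 respiratory chain genes and 24 partners, and of the named genes it changed the call of Cox7a1. Same-numbered samples were not shown to be paired: their deviations from the group means correlated at 0.019, 0.004 and −0.022. At this depth 27 of the 98 genes had no counts in any neuron library.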
